A study of Mus musculus with 7 samples.

Results

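The tumor necrosis factor (TNF) superfamily comprises ligands, most of them trimeric membrane proteins that can be shed, and the receptors that bind them. Receptors with a cytoplasmic death domain can recruit adaptors and caspases, whereas the others bind TRAF adaptors and lead to NF-κB and MAP kinase signaling, and decoy receptors bind ligand without passing on a death signal. In liver, macrophages are a known source of TNF after exposure to bacterial lipopolysaccharide (LPS), and hepatocytes carry receptors for TNF and for Fas ligand. Members were chosen by gene symbol. The rule took every row of the count table whose symbol was Tnfsf or Tnfrsf followed by a digit, together with Tnf, Lta, Ltb, Ltbr, Fas, Fasl, Cd40, Cd40lg, Cd27, Cd70, Ngfr, Eda2r and Edar. It found 45 of 56691 genes, of which 44 encode proteins and 1 (Tnfsf13os) is an antisense RNA. By role there were 17 ligands, 7 death-domain receptors, 3 decoy receptors, 7 costimulatory receptors, 3 B-cell survival receptors and 7 other receptors without a death domain.

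RNA sequencing of whole liver was available for 4 control and 3 LPS libraries from a study with 6 mice a group. Animals were C57BL/6J males bought at an age of 8 weeks and then housed for 2 weeks. The LPS group received LPS at 10 mg/kg into the peritoneal cavity, and livers were taken 24 h later. What the control group was injected with was not given in the sources used here. The sequenced groups were described as mice, as many as there are libraries, and p-values measure the spread between these libraries. Total counts were 14991022, 15096573, 15721944 and 18584140 in control replicates 1 to 4 and 20500391, 17095607 and 17821331 in LPS replicates 1 to 3. Levels are given in CPM, the counts of a gene per 1e6 counts of its library after the library total was scaled with edgeR's TMM factor, so that libraries of different depth can be compared. At these depths 3 counts corresponded to between 0.138 and 0.212 CPM, and a gene with more than 3 counts in at least 1 library was called detected.

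Several libraries stood apart from the rest of their group. Mitochondrial genes took 23.7%, 14.6%, 7.48% and 8.96% of counts in control replicates 1 to 4 and 6.45%, 3.83% and 3.94% in LPS replicates 1 to 3. LPS replicates 2 and 3 were closer to each other than any other pair of replicates. Over 1901 genes with a mean above 1000 counts, their log2 ratio had an SD of 0.115, where counting alone gives 0.0557, while the other 8 pairs lay between 0.291 and 0.545. Whether these libraries came from separate mice was not tested, and if they did not, the LPS group holds fewer than 3 independent samples and p-values are too small. Meanwhile, LPS replicate 1 differed from both in its macrophage and endothelial genes. The 7 markers of Kupffer cells and macrophages, all detected, summed to 81.2, 117, 105 and 74.7 CPM in control replicates 1 to 4 and to 534, 106 and 108 CPM in LPS replicates 1 to 3. Clec4f was the most abundant of them in controls and Marco after LPS. Marco went from 3.69 ± 1.54 CPM (SD, n = 4) in control livers to 181 ± 198 CPM (SD, n = 3) in LPS livers, and LPS replicate 1 had the highest LPS value for each of the 7 genes. The list did not move one way. Marco (log2 fold change 5.62; edgeR, adjusted p = 3.3e-05), Adgre1 and Cd68 passed the test for a rise described with the family, whereas the Kupffer cell marker Clec4f passed for a fall, from 54.4 ± 11.8 to 12.3 ± 10.3 CPM. The 6 endothelial cell markers, all detected, summed to 96.4, 125, 79.0 and 108 CPM in control replicates 1 to 4 and to 134, 69.8 and 66.9 CPM in LPS replicates 1 to 3. LPS replicate 1 had the highest LPS value for 5 of them, and Stab2 was the most abundant over all libraries. Pecam1 and Lyve1 rose, and Kdr and Clec4g fell.

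Markers of other immune cells also differed between the groups. The 7 neutrophil markers, all detected, summed to 5.17, 4.04, 1.53 and 2.86 CPM in control replicates 1 to 4 and to 199, 141 and 140 CPM in LPS replicates 1 to 3. S100a9 was the most abundant after LPS and Csf3r in controls. Ly6g had no count in any control library and 7, 0 and 1 counts in LPS replicates 1 to 3, so its groups overlapped. Furthermore, the 10 T and NK cell markers summed to 6.65, 5.87, 5.44 and 4.16 CPM in controls and to 9.22, 8.57 and 9.84 CPM after LPS. Gzma carried that difference, from 0.678 ± 0.496 to 6.08 ± 0.588 CPM, while the T-cell receptor subunit genes Cd3d, Cd3e and Cd3g had group means between 0.0515 and 0.707 CPM. Meanwhile, the T helper cell marker Cd4 fell from 2.13 ± 0.231 to 0.258 ± 0.232 CPM, with each LPS library below all controls. The 6 B and plasma cell markers, led by Jchain, summed to 7.36, 6.44, 3.42 and 5.32 CPM in controls and to 1.98, 0.709 and 1.49 CPM after LPS. Hepatocyte markers, led by Alb in controls and by Fgb in the mean of the LPS libraries, summed to 78670 ± 13100 CPM in control and 70600 ± 7270 CPM in LPS libraries over the 7 genes matched. The sum held opposite changes, since Alb, Ttr, Apoa1 and Serpinc1 fell and Fgb rose from 5199 ± 1038 to 25870 ± 5114 CPM. In whole liver, fewer cells of a type and less RNA per cell cannot be told apart, and the part of these cell types in the results below was not tested.

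**Figure D1:**
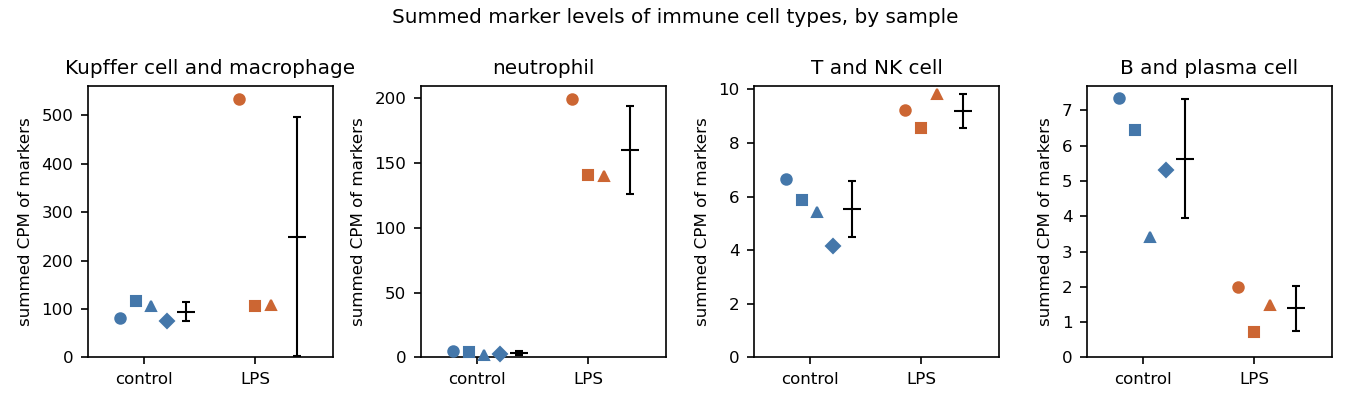
Summed CPM of the marker genes of 4 immune cell types (y axis) in each control and LPS library (x axis), with symbols for replicates and bars for mean and SD. LPS replicate 1 stands at 534 CPM for Kupffer cell and macrophage markers, and the neutrophil sums after LPS (140 to 199 CPM) lie above those of the controls.

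The summed level of the family was higher after LPS. It was 146, 148, 136 and 146 CPM in control replicates 1 to 4 and 271, 308 and 298 CPM in LPS replicates 1 to 3, so the groups did not overlap. Most of the sum came from the receptors Tnfrsf1a, Ltbr, Fas and Tnfrsf1b. These 4 genes made up 74.9% of the family's CPM in control and 82.2% in LPS livers, with summed levels of 108 ± 5.84 CPM (SD, n = 4) and 241 ± 30.6 CPM (SD, n = 3). The 17 ligands together contributed 10.4 ± 1.62 CPM in control and 15.8 ± 1.8 CPM in LPS livers, and their share was 7.25% and 5.39%.

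Each gene that passed a filter on low counts was tested with edgeR's quasi-likelihood test, and p-values were adjusted over all 13683 genes tested by the Benjamini-Hochberg method. A gene was said to rise or fall where its adjusted p was below 0.05. By this rule 1825 genes rose (13.3%) and 1773 fell (13.0%), and with total-count scaling 1350 rose and 2057 fell. Of the 45 members, 19 were tested, of which 9 rose, 2 fell and 8 did not pass. The median log2 fold change of the members tested was 0.96, beside -0.01 for all genes tested. The filter asked for at least 3 libraries above 0.585 counts per 1e6 of the unscaled library total. Tnf, Tnfrsf9 and Tnfrsf23 met this through the LPS group alone, Ngfr, Tnfrsf19 and Tnfrsf22 through the control group alone, and Ltb and Tnfrsf26 only over both groups together. Entry through 1 group favors members that differ, so the counts describe the members tested and do not speak for the family. A fit without a filter, which tested 41 members, called 13, among them the same 11. Over all 23651 genes in that fit, 2065 rose and 1967 fell. Of the 26 members not tested, 17 were detected and 9 had at most 3 counts in every library. LPS replicate 1 held the highest LPS value for 10 of the 19 members (52.6%), compared with 36.4% of all genes tested. Counting the untested members too, LPS libraries lay above all controls for 12 of the 45 members and below them for 2, beside 2473 and 2376 of the 13683 genes tested. These sets are unlike, since the 45 include members that failed the filter.

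**Figure D2:**
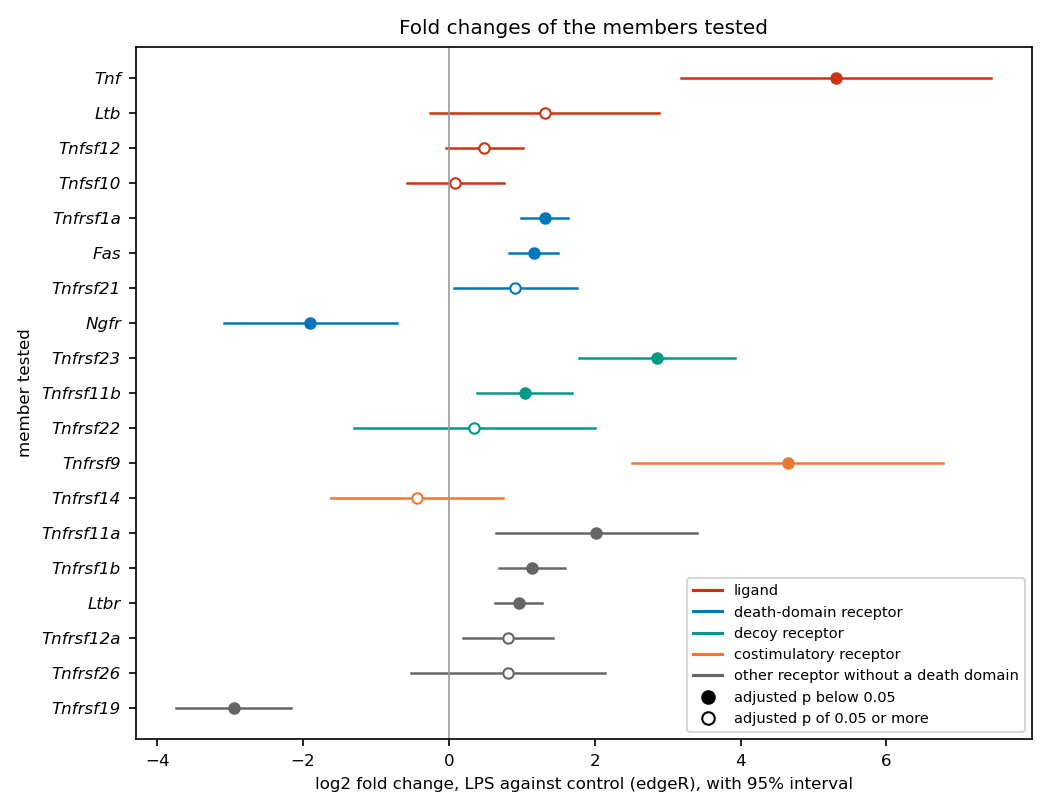
Log2 fold change of LPS against control (x axis) for the 19 members tested (y axis), with 95% intervals from edgeR, colored by role. Filled circles mark the 9 members that rose and the 2 that fell, and open circles mark the 8 that did not pass.

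Among the ligands, Tnf rose from next to nothing. Tnf (ENSMUSG00000024401), the cytokine for which the family is named, was at 0, 0.189, 0 and 0 CPM in control replicates 1 to 4 and at 3.83, 1.35 and 0.996 CPM in LPS replicates 1 to 3. Each LPS library was above each control library, and LPS replicate 1 was the highest. The control libraries held 3 Tnf counts in all, from control replicate 2, and the LPS libraries held 120. The ratio of these summed counts, per scaled library total, was 50.3, with a 95% interval of 16.8 to 247 that covers counting error only. The fitted log2 fold change was 5.31 (SE 0.98; edgeR, adjusted p = 0.00154), although its size depends on the small count added to near-empty groups. It was 4.48 without LPS replicate 1 (adjusted p = 0.0141) and 8.18 without control replicate 2 (adjusted p = 0.00284).

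The other 3 ligands tested did not pass. Tnfsf10, which encodes TRAIL, a ligand that triggers apoptosis, was at 4.53, 3.35, 2.63 and 5.13 CPM in control replicates 1 to 4 and at 4.56, 3.61 and 4.30 CPM in LPS replicates 1 to 3. The LPS values lay inside the range of the controls. The log2 fold change was 0.09 (95% interval -0.58 to 0.75; edgeR, adjusted p = 0.869), and its sign turned with total-count scaling (-0.02). Tnfsf12, which encodes TWEAK, was at 4.76 ± 0.761 CPM in control and 6.67 ± 1.05 CPM in LPS livers, with 1 of the LPS values inside the control range (log2 fold change 0.49, edgeR, adjusted p = 0.168). Tnfsf12 shares its locus with Tnfsf13, the read-through gene Tnfsfm13 and the antisense gene Tnfsf13os, so counts at this locus are uncertain. Summed over these 4 genes, levels were 5.84 ± 0.988 and 7.95 ± 1.24 CPM (exact permutation test over 35 regroupings, two-sided p = 0.0857, adjusted p = 0.114 over 4 such values). Ltb, a subunit of membrane lymphotoxin, ranged from 0.122 to 0.568 CPM in controls and from 0.387 to 1.93 CPM after LPS, the highest value being in LPS replicate 3 (edgeR, adjusted p = 0.21).

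The remaining 13 ligands were too low to test. Fasl, the ligand of Fas, had 5, 10, 1 and 3 counts in control replicates 1 to 4 and 11, 1 and 4 counts in LPS replicates 1 to 3. The groups overlapped over nearly their whole range. Tnfsf9, the ligand of the costimulatory receptor Tnfrsf9, had 0, 0, 2 and 0 counts in controls and 16, 5 and 6 counts after LPS. Its 3 LPS libraries were above all controls, and the ratio of summed counts was 17 with a 95% counting interval of 4.27 to 147. A fit without a filter gave Tnfsf9 an adjusted p of 0.0712 (edgeR). Among the others detected, Tnfsf13b, which encodes the B-cell survival factor BAFF, had between 2 and 22 counts, Tnfsf14 between 0 and 15, and Tnfsf13 between 0 and 6. Cd40lg, a ligand of activated T cells, had 4 and 6 counts in control replicates 2 and 3 and none in the other libraries. Lta, Tnfsf18, Tnfsf11 and Tnfsf15 had at most 3 counts in every library, and Cd70, Tnfsf4 and Tnfsf8 had none.

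Of the 7 death-domain receptors, 4 were tested, of which Tnfrsf1a and Fas rose and Ngfr fell. Tnfrsf1a (ENSMUSG00000030341), the receptor through which soluble TNF mainly acts, was at 39.2, 43.6, 38.4 and 41.2 CPM in control replicates 1 to 4 and at 81.7, 111 and 110 CPM in LPS replicates 1 to 3. The groups did not overlap, and LPS replicate 1 was the lowest LPS library for this gene while it was the highest for Tnf and for the macrophage markers. This gave a log2 fold change of 1.31 (SE 0.15; edgeR, adjusted p = 2.93e-05). Fas (ENSMUSG00000024778), the receptor of Fas ligand, was at 15.6, 14.3, 19.2 and 15.4 CPM in controls and at 31.1, 37.7 and 39.7 CPM after LPS. Each LPS value was again above each control value, with LPS replicate 1 the lowest of the 3 (log2 fold change 1.16, SE 0.16; edgeR, adjusted p = 0.000142).

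Ngfr (ENSMUSG00000000120), the low-affinity neurotrophin receptor, went the other way. It was at 3.33, 1.58, 2.02 and 4.02 CPM in control replicates 1 to 4 and at 1.24, 0.515 and 0.374 CPM in LPS replicates 1 to 3. All LPS values were below the lowest control, with control replicate 4 the highest and LPS replicate 3 the lowest. The log2 fold change was -1.90 (SE 0.55; edgeR, adjusted p = 0.0218). It was -1.66 without control replicate 4 (adjusted p = 0.0645), -1.72 without LPS replicate 2 (0.0847) and -1.60 without LPS replicate 3 (0.0893), and it did not pass in these fits. It also did not pass with LPS replicates 2 and 3 summed (-1.71, adjusted p = 0.0746), and it was -2.60 without LPS replicate 1 (0.01). Ngfr is known as a gene of hepatic stellate cells. The 6 stellate cell markers were all detected and led by Dcn. They summed to 334, 240, 149 and 242 CPM in controls and to 215, 181 and 171 CPM after LPS. Of the 6 markers, Lrat and Reln fell and the other 4 did not pass. Among those 4, Col1a1 went the other way (log2 fold change 0.45), and the median of the list was -0.133. The part of stellate cells in the result was not tested.

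Tnfrsf21, or death receptor DR6, was at 3.78 ± 1.77 CPM in control and 7.07 ± 2.96 CPM in LPS livers and did not pass (log2 fold change 0.91, SE 0.39; edgeR, adjusted p = 0.107). Its adjusted p was 0.0489 without control replicate 1. Tnfrsf10b, the mouse death receptor for TRAIL, was too low to test, with 11, 4, 4 and 10 counts in control replicates 1 to 4 and 35, 3 and 3 counts in LPS replicates 1 to 3. LPS replicate 1 was above every control, whereas LPS replicates 2 and 3 were below every control. Tnfrsf25 had 15 counts in control replicate 1 and at most 2 elsewhere, and Edar had at most 3 counts in any library.

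The 3 decoy receptors were tested and 2 of them rose. Tnfrsf11b (ENSMUSG00000063727) encodes osteoprotegerin, a secreted receptor that binds RANKL and TRAIL. It was at 2.76, 2.08, 2.69 and 3.58 CPM in control replicates 1 to 4 and at 7.42, 5.22 and 4.54 CPM in LPS replicates 1 to 3. The groups did not overlap, and LPS replicate 1 was the highest. The log2 fold change was 1.04 (SE 0.30; edgeR, adjusted p = 0.0225). It did not pass with total-count scaling (0.94, adjusted p = 0.056) or without control replicate 2 (0.91, adjusted p = 0.0664), LPS replicate 1 (0.81, adjusted p = 0.113) or LPS replicate 2 (1.11, adjusted p = 0.0509).

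Tnfrsf23 (ENSMUSG00000037613), a mouse decoy receptor for TRAIL, was at 0.708, 0.379, 0.428 and 0.290 CPM in control replicates 1 to 4 and at 4.66, 2.45 and 2.62 CPM in LPS replicates 1 to 3. All LPS libraries were above all controls (log2 fold change 2.85, SE 0.49; edgeR, adjusted p = 0.000919). Its neighbor and close relative Tnfrsf22 was at 1.27, 0.568, 0.0611 and 0.968 CPM in controls and at 0.599, 1.55 and 0.623 CPM after LPS. These groups overlapped (log2 fold change 0.35, SE 0.76; edgeR, adjusted p = 0.784). The paralogs share sequence, since 377 of 4048 stretches of 100 bases in Tnfrsf23 transcripts (9.31%) also occur in Tnfrsf22 transcripts, so the split of counts between them is uncertain. The sum of both genes was 1.98, 0.947, 0.489 and 1.26 CPM in controls and 5.25, 3.99 and 3.24 CPM after LPS. The sums did not overlap, and an exact permutation test gave a two-sided p of 0.0286, the smallest that 35 regroupings allow (adjusted p = 0.0572). The share of Tnfrsf23 in the counts of the pair was 46.6% ± 28.2 in control and 76.9% ± 14.1 in LPS livers, which did not pass (exact permutation test, p = 0.171).

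Among the 7 costimulatory receptors, 2 were tested, and Tnfrsf9 rose. Tnfrsf9 (ENSMUSG00000028965), also called CD137 and known from activated T and NK cells, was at 0, 0, 0 and 0.242 CPM in control replicates 1 to 4 and at 3.50, 1.61 and 0.685 CPM in LPS replicates 1 to 3. Each LPS library was above each control library, and the LPS libraries differed among themselves as they did for Tnf, with LPS replicate 1 at the top. Summed counts were 5 in control and 112 in LPS libraries, a ratio of 28.2 with a 95% counting interval of 11.7 to 88.4. The log2 fold change was 4.64 (SE 0.98; edgeR, adjusted p = 0.0039), and it was 3.90 without LPS replicate 1 (adjusted p = 0.0289) and 8.02 without control replicate 4 (adjusted p = 0.00273). Tnfrsf14, a receptor of lymphotoxin and LIGHT, was at 1.25 ± 0.646 CPM in control and 0.908 ± 0.0936 CPM in LPS livers with overlapping groups (edgeR, adjusted p = 0.609).

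Cd40, the receptor by which T cells activate B cells and macrophages, was not tested. It had 11, 5, 3 and 6 counts in control replicates 1 to 4 and 27, 1 and 10 counts in LPS replicates 1 to 3. The groups overlapped, and LPS replicates 1 and 2 were the highest and the lowest of the 7 libraries. Tnfrsf8 had 17 counts in LPS replicate 1 and none in any other library. Tnfrsf4, Tnfrsf18 and Cd27 were detected, each with at most 16 counts in a library and with overlapping groups.

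None of the 3 B-cell survival receptors could be tested. Tnfrsf13b, which encodes TACI, had 1, 3, 0 and 1 counts in control replicates 1 to 4 and 10, 5 and 15 counts in LPS replicates 1 to 3. Its LPS libraries were above all controls, with a ratio of summed counts of 7.55 and a 95% counting interval of 2.9 to 24.9. By contrast, Tnfrsf13c, the BAFF receptor, had 8, 7, 0 and 7 counts in controls and 0, 2 and 0 counts after LPS. The groups overlapped through control replicate 3. A fit without a filter gave adjusted p-values of 0.127 for Tnfrsf13b and 0.261 for Tnfrsf13c (edgeR), and Tnfrsf17 had no count in any library.

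Of the 7 other receptors without a death domain, 6 were tested, of which Tnfrsf1b, Ltbr and Tnfrsf11a rose and Tnfrsf19 fell. Tnfrsf1b (ENSMUSG00000028599), the TNF receptor that signals through TRAF adaptors, was at 13.3, 17.8, 10.9 and 22.1 CPM in control replicates 1 to 4 and at 35.4, 36.8 and 34.2 CPM in LPS replicates 1 to 3. The LPS libraries lay close together and above all controls. The fitted log2 fold change was 1.14 (SE 0.21; edgeR, adjusted p = 0.0015). Ltbr (ENSMUSG00000030339), the lymphotoxin beta receptor, was at 33.5, 39.3, 36.2 and 31.2 CPM in controls and at 57.3, 76.7 and 70.1 CPM after LPS. The groups did not overlap, and LPS replicate 1 was the lowest LPS library, as for Tnfrsf1a and Fas (log2 fold change 0.96, SE 0.15; edgeR, adjusted p = 0.00042).

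Tnfrsf11a (ENSMUSG00000026321), which encodes RANK, the receptor of RANKL, was at 0.778, 0.947, 0.672 and 0.0968 CPM in control replicates 1 to 4 and at 4.06, 1.68 and 1.74 CPM in LPS replicates 1 to 3. All LPS libraries exceeded all controls, with LPS replicate 1 the highest. Its log2 fold change was 2.02 (SE 0.63; edgeR, adjusted p = 0.0327). It was 1.47 without LPS replicate 1 (adjusted p = 0.178). Without LPS replicate 3 it was 2.22 and did not pass either (adjusted p = 0.0544). With the replicate number added to the fit as a block it was 1.52 and also did not pass (adjusted p = 0.0914). The gene of their shared ligand RANKL, Tnfsf11, had at most 3 counts in any library, while those of RANK and of its decoy osteoprotegerin were higher after LPS.

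Tnfrsf19 (ENSMUSG00000060548), a receptor also called TROY, fell. It was at 6.65, 4.48, 4.89 and 4.84 CPM in control replicates 1 to 4 and at 0.784, 0.709 and 0.498 CPM in LPS replicates 1 to 3. Both groups were tight and far apart, and the log2 fold change was -2.95 (SE 0.36; edgeR, adjusted p = 7e-05). Tnfrsf12a, the TWEAK receptor Fn14, was at 4.48 ± 1.58 CPM in control and 7.85 ± 1.29 CPM in LPS livers. Its groups did not overlap, but it did not pass (log2 fold change 0.81, SE 0.29; edgeR, adjusted p = 0.054). The adjusted p was 0.00947 without control replicate 3, the highest control. Tnfrsf26, which lies beside Tnfrsf22 and Tnfrsf23, was at 0.562 ± 0.250 and 0.973 ± 0.412 CPM with overlapping groups (edgeR, adjusted p = 0.369), and Eda2r was not tested, with between 2 and 26 counts.

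**Figure D3:**
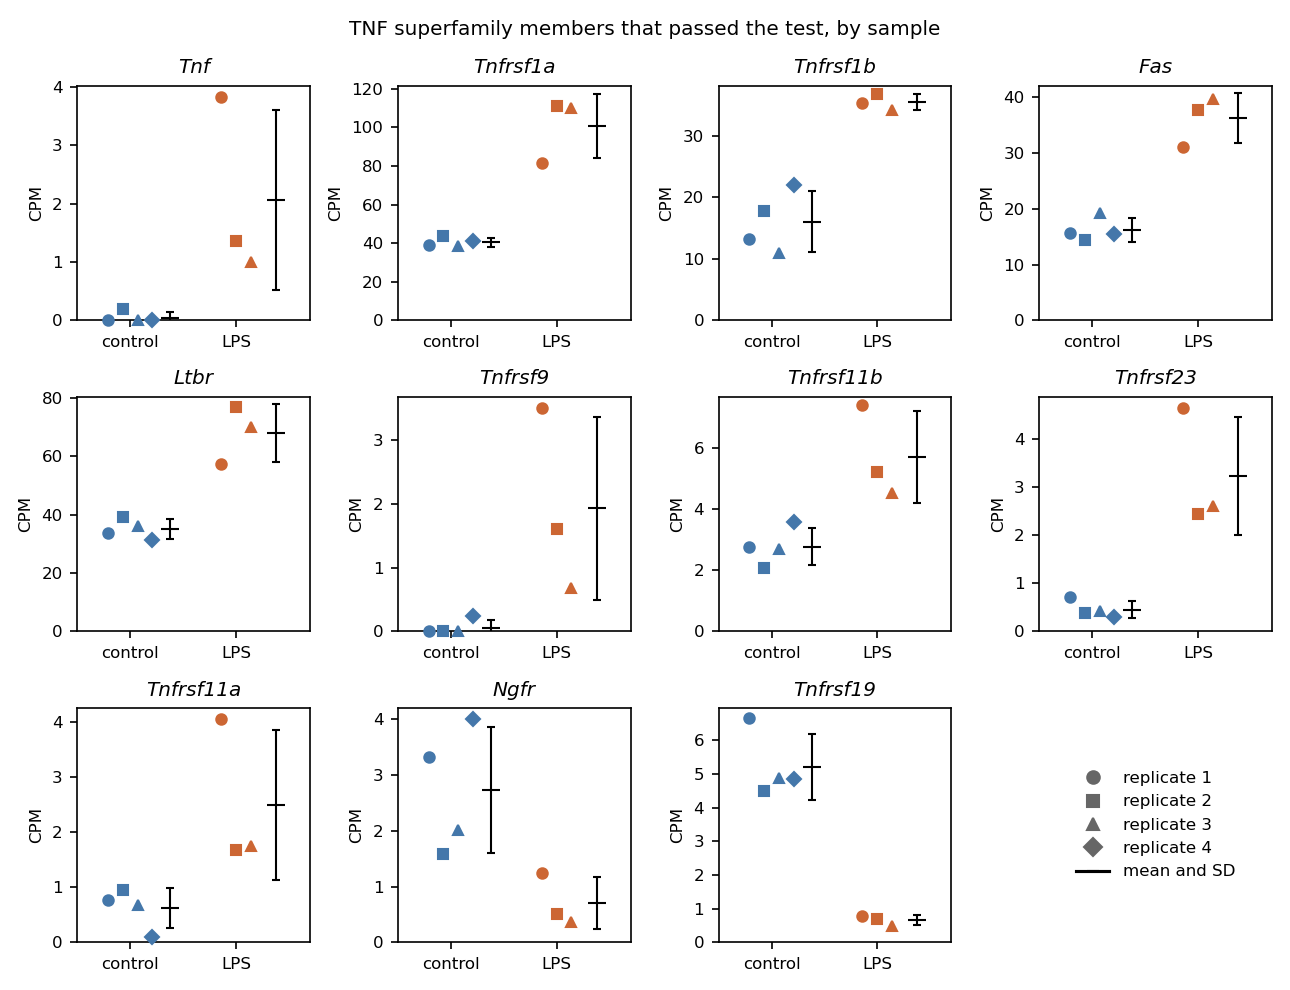
CPM (y axis) of the 11 members that passed the test in each control and LPS library (x axis), with symbols for replicates and bars for mean and SD. LPS replicate 1 is the highest LPS library for Tnf (3.83 CPM) and Tnfrsf9 (3.50 CPM) and the lowest for Tnfrsf1a (81.7 CPM), Fas (31.1 CPM) and Ltbr (57.3 CPM).

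Levels of different genes were compared per kilobase of exon. Among the members named here, Tnfrsf1a was highest in controls at 15.7 ± 0.892 CPM per kb, followed by Ltbr at 14.9 ± 1.48, which did not differ beyond their spread. Fas came next at 7.82 ± 1.02 CPM per kb and then Tnfrsf1b at 4.19 ± 1.3. After LPS the order was the same, with levels of 38.9 ± 6.42 CPM per kb for Tnfrsf1a, 28.9 ± 4.2 for Ltbr, 17.5 ± 2.17 for Fas and 9.29 ± 0.342 for Tnfrsf1b. The ligands had lower means, although Tnfsf12 and Tnfrsf1b did not differ beyond their spread in controls. Tnfsf12 stood at 3.14 ± 0.502 and 4.4 ± 0.693 CPM per kb in control and LPS livers, Tnfsf10 at 0.742 ± 0.215 and 0.789 ± 0.0935, and Tnf at 0.0289 ± 0.0578 and 1.26 ± 0.94. In LPS livers the levels of Tnf and Tnfsf10 per kb did not differ beyond their spread. The decoy Tnfrsf11b was at 0.986 ± 0.218 CPM per kb in control and 2.03 ± 0.534 in LPS livers.

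Genes linked to signaling by these receptors were examined as a list of 37. The list held adaptors, kinases, ubiquitin enzymes and their regulators, and cell-death effectors. It also held 4 genes of sheddases and their carriers, which do not act downstream of the receptors and of which 3 rose. All 37 were tested, of which 8 rose (21.6%) and 2 fell (5.41%), beside 13.3% and 13.0% of all genes tested, and the median log2 fold change was 0.21. Ripk3, which rose, and Traf1, which did not pass, entered the test through the LPS group alone. Tnfaip3, the ubiquitin-editing enzyme that restrains NF-κB signaling, was at 0.283, 0.568, 1.16 and 0.774 CPM in control replicates 1 to 4 and at 22.3, 22.6 and 22.4 CPM in LPS replicates 1 to 3. The LPS libraries were nearly equal and far above the controls (log2 fold change 4.97, SE 0.30; edgeR, adjusted p = 1.57e-07). Its binding partner Tnip1 went from 6.52 ± 0.577 to 19.5 ± 3.69 CPM (log2 fold change 1.58, SE 0.19; edgeR, adjusted p = 4.88e-05). The ubiquitin ligase gene Birc2 went from 23.9 ± 3.29 to 37.9 ± 2.06 CPM (log2 fold change 0.67, SE 0.15; edgeR, adjusted p = 0.00499). In these genes no LPS library fell within the control range.

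Adam10 and Adam17 encode sheddases, which release membrane proteins such as TNF and its receptors, and were listed with Rhbdf1 and Rhbdf2, which encode carriers of ADAM17 without protease activity. Of these 4 genes 3 rose, where 13.3% of all genes tested did, and Rhbdf1 did not pass (log2 fold change 0.03; edgeR, adjusted p = 0.976). Rhbdf2 was at 4.60, 2.52, 3.73 and 4.11 CPM in control replicates 1 to 4 and at 15.8, 17.5 and 15.8 CPM in LPS replicates 1 to 3. The groups were far apart (log2 fold change 2.12, SE 0.22; edgeR, adjusted p = 1.6e-05). Adam10 had a log2 fold change of 0.63 (SE 0.14; edgeR, adjusted p = 0.00471). Adam17 had one of 0.74 (SE 0.19; edgeR, adjusted p = 0.012). It did not pass without LPS replicate 1 (0.63, adjusted p = 0.0542) or LPS replicate 3 (0.71, adjusted p = 0.0528). The necroptosis kinase gene Ripk3 also rose (log2 fold change 2.13, edgeR, adjusted p = 0.0168), but did not pass without LPS replicate 1 (1.61, adjusted p = 0.108). Traf3 rose with overlapping groups (edgeR, adjusted p = 0.0481), and the call held in 3 of 15 alternatives. The adaptor gene Traf5 fell (log2 fold change -1.13, edgeR, adjusted p = 0.0196), and did not pass without LPS replicate 3 (-0.99, adjusted p = 0.0845). The kinase gene Chuk fell as well (log2 fold change -0.526, edgeR, adjusted p = 0.0173). It did not pass without LPS replicate 2 (-0.524, adjusted p = 0.0773) or LPS replicate 3 (-0.489, adjusted p = 0.0936). With both summed it did not pass either (-0.501, adjusted p = 0.0888), so the fold stayed about as large.

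Genes of the death-receptor pathway itself were also on the list. Casp8, the initiator caspase of the death receptors, was at 37.1 ± 2.62 CPM in control and 35.9 ± 6.41 CPM in LPS livers (log2 fold change -0.05, SE 0.15; edgeR, adjusted p = 0.862). Its inhibitor Cflar was at 67.6 ± 8.88 and 68.7 ± 6.39 CPM (log2 fold change 0.02, SE 0.15; edgeR, adjusted p = 0.927). The groups overlapped for both genes, and neither passed. A list of 8 genes was taken by their names as TNF-induced proteins. On it, Tnfaip8l1, Tnfaip8l2 and Tnfaip8l3 are named for likeness to Tnfaip8. TNF-induced is thus a label of the list, and induction by TNF was not tested. The list, which shares Tnfaip3 with the list above, had a median log2 fold change of 0.24. It had 7 genes tested, with 1 rising and 1 falling (14.3% each, near the 13.3% and 13.0% of all genes tested). With a filter of 10 counts in every library neither was tested, and 0 rose and 0 fell. The gene that fell, Tnfaip8l3, which entered the test through the control group alone, was at 0.849, 0.631, 1.77 and 2.13 CPM in control replicates 1 to 4 and at 0, 0.0644 and 0.249 CPM in LPS replicates 1 to 3. Its groups did not overlap (log2 fold change -3.70, SE 0.92; edgeR, adjusted p = 0.0102). It did not pass without LPS replicate 2 (-3.5, adjusted p = 0.0503). The log2 fold change was -3.04 without LPS replicate 1 and -5.29 without LPS replicate 3.

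Many members lie beside each other in the genome. In the RefSeq gene order, Ltb, Tnf and Lta are adjacent on chromosome 17, with no protein-coding gene between them, and of these Tnf rose, Ltb did not pass and Lta had at most 3 counts. Tnfrsf26, Tnfrsf22 and Tnfrsf23 are adjacent on chromosome 7, and of these Tnfrsf23 rose. Ltbr and Tnfrsf1a, which both rose, have 1 protein-coding gene between them on chromosome 6. Tnfrsf1b and Tnfrsf8 are adjacent on chromosome 4, where Tnfrsf1b rose and Tnfrsf8 was seen in LPS replicate 1 alone.

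Promoters were taken from RefSeq (build GRCm38.p6) for 34 of the 45 members, as windows of 300 bases from 250 before to 50 after the gene start. They were searched on both strands for GGNNTTTCC, letters of NF-κB sites, and TGANTCA, letters of AP-1 sites. The NF-κB letters occurred in 5 of 38 promoters of members (13.2%), compared with 5.82% of 32851 promoters of all genes, and in 1 of the 9 promoters of members that rose (11.1%). The AP-1 letters occurred in 7 of 38 (18.4%), compared with 7.81% of all, and in 2 of the 9 (22.2%). Promoters were counted by start, so Tnfrsf9 counts with both of its starts, and the overlapping windows of Tnfsf13b share the same AP-1 match. Tnfrsf11b had no entry. For the pair with the largest fitted increases among the 19 members tested, 1 start each is shown by its 250 bases upstream, with the NF-κB letters in capitals. The window of Tnf is chr17:35202008-35202257 on the minus strand and holds no match. That of the second start of Tnfrsf9 is chr4:150927749-150927998 on the plus strand and holds 1 match, beginning 42 bases before the start, whereas the 250 bases before its first start, chr4:150919905-150920154, hold none and are not printed. A match is a description of the letters and not of binding.
Tnf: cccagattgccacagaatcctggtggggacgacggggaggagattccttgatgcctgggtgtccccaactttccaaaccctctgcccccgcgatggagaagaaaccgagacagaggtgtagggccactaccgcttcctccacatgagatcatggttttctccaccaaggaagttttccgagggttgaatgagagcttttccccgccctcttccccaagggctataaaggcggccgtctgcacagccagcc
Tnfrsf9, second start: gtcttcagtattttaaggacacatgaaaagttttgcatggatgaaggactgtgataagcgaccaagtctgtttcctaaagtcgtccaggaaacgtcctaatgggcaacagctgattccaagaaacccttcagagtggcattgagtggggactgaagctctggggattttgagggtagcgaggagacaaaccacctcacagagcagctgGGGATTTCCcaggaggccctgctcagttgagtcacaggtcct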

How the data were processed

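Poly(A) RNA of mouse liver was sequenced from strand-specific libraries in 4 control and 3 LPS samples. The values are counts of reads per gene, which the authors deposited as 1 table. The submitters' processing notes name cutadapt 1.9.1, HISAT2 2.2.1, HTSeq 0.6.1, DESeq2 1.34.0 and build GRCm39. The strand setting of the counting and its treatment of reads with several matches are not given in the sources used here. From the counts, R 4.3.3 with edgeR 4.0.16 (filterByExpr, TMM factors, glmQLFit, glmQLFTest) compared the groups over 13683 genes with Benjamini-Hochberg adjustment. The procedure was tested on simulated data. Groups came from the treatment in the labels. Members and gene lists were chosen with earlier results of these data known.

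All members were accounted for. Values in every sample were given for members with adjusted p below 0.05 and for Tnf, Tnfrsf1a, Tnfrsf1b, Fas, Fasl, Tnfsf10, Tnfrsf10b, Cd40, Tnfrsf11b and Ltbr. Other members were given by values, ranges or group means, and Tnfsf13os had between 1 and 4 counts in each library. From the signaling and TNF-induced lists, genes with adjusted p below 0.05 were named, those with the 6 smallest adjusted p with fold change and error. Markers of cholangiocytes (140 ± 84 CPM in control and 153 ± 14.1 CPM in LPS libraries) were also summed. Of these 5 genes Sox9 rose and the other 4 did not pass. Krt19, Krt7 and Epcam had lower means after LPS, and the median log2 fold change of the 5 was -0.341. Exon lengths came from GENCODE M21, in which 52073 of 56691 gene identifiers were found. Its build differs from that of the counts, so no gene coordinates are given except RefSeq promoters on their own build. Alternatives were DESeq2 1.42.0, other scaling, other filters, a fold threshold, a replicate block, summing LPS replicates 2 and 3, and leaving out each sample.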

Additional observations from a re-analysis of the deposited data

Results flagged for a closer look

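In the control group 2 of the 19 members tested had a library far from the other 3. Tnfrsf9 was at 0.242 CPM in control replicate 4 and had no count in the other controls. Tnf was at 0.189 CPM in control replicate 2 and likewise had no count in the others. With values this low a few counts set the gap. Chance alone sets apart about 1 in 20 groups of this size when values vary smoothly. This rate does not apply here, since any count stands apart where the other libraries have none.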

How the results depend on the processing

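Under the 15 alternatives that refitted the data, Fas, Ltbr, Tnfrsf1a and Tnfrsf1b kept their call in each, and Tnf, Tnfrsf9, Tnfrsf23 and Tnfrsf19 in each of the 14 that tested them. Ngfr kept it in 10 of 14, Tnfrsf11a in 11 of 14 and Tnfrsf11b in 11 of 15. Over the alternatives, adjusted p (edgeR or DESeq2) ran from 5.17e-08 to 0.0141 for Tnf, 8.69e-07 to 0.0289 for Tnfrsf9, 0.00388 to 0.0893 for Ngfr, 0.00378 to 0.178 for Tnfrsf11a, 0.0139 to 0.113 for Tnfrsf11b, 0.00947 to 0.205 for Tnfrsf12a and 0.0183 to 0.388 for Tnfrsf21. Among signaling and TNF-induced genes it reached 0.0542 for Adam17, 0.108 for Ripk3, 0.182 for Traf3, 0.0845 for Traf5, 0.0936 for Chuk and 0.0503 for Tnfaip8l3. With at least 10 counts in every sample, 5 members rose and 0 fell, 5 signaling genes rose and 2 fell, and 0 TNF-induced genes rose and 0 fell. Over the 11307 genes tested with that filter, 1444 rose and 1585 fell. That filter tested 10 members and left out Tnfaip3, Ripk3 and Tnfaip8l3, while Traf3 was tested and did not pass (0.61; edgeR, adjusted p = 0.06). Of the members, 10 rose with DESeq2 and 11 without a filter, beside 1947 and 2065 of all genes in these fits. With an absolute log2 fold change above 1 as well, 8 members rose and 2 fell, Ltbr (0.96) being lost, 4 signaling genes rose and 1 fell, and over all genes 1068 rose and 1000 fell. With LPS replicates 2 and 3 summed, 1 member and 1 signaling gene fell, and over all genes 1348 rose and 1195 fell. Among TNF-induced genes, 2 rose with DESeq2 and without a filter, and 2 fell with total-count scaling, which shifted the median of all genes by -0.116. The cause was not tested. Leaving out each sample gave 7 to 10 members that rose and 1 to 2 that fell, 5 to 8 signaling genes that rose and 0 to 3 that fell, and 1 to 2 TNF-induced genes that rose and 0 to 2 that fell. Over all genes it gave 1290 to 1906 that rose and 1146 to 1868 that fell. With samples left out, the log2 fold change of Tnfrsf22 ran from -0.224 without LPS replicate 2 and -0.035 without control replicate 3 to 0.739 without control replicate 1, and it reached 0.844 over all alternatives. That of Tnfsf10 ran from -0.065 without control replicate 3 to 0.246 without control replicate 4. It was -0.024 with total-count scaling and reached 0.27 over all alternatives. With the replicate number as a replicate block, 11 members passed, of which 10 were shared, Tnfrsf11a being lost and Tnfrsf21 gained. Deviations of same-numbered samples correlated at 0.22, -0.06 and 0.09, and those of the other pairs at -0.157 to 0.114. These values cannot decide whether the numbers pair the samples, since LPS replicates 2 and 3 lay close together and their deviations are not independent. Depth limits the 26 members that were not tested. Intervals of the ratios of summed counts cover counting error only, whereas the edgeR intervals of log2 fold changes also take in the spread between libraries. Reads carried no molecular identifiers.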
